A study of Mus musculus with 8 samples.

Results

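The matrix metalloproteinases, enzymes that cut extracellular matrix, and their tissue inhibitors (TIMPs) were followed across 8 arrays of mouse ependymal cultures. The genes are a part of the family, chosen with earlier results of these data known: Mmp2, Mmp3, Mmp9, Mmp14, Mmp15, Mmp16, Mmp17, Timp2, Timp3 and Timp4. For each gene the transcript cluster whose annotation gives that symbol was used. Of these 10 genes, 9 had such a cluster among 30738 genes tested, 1 cluster each; Mmp15 had none of its own in the annotation used and is not analysed here.

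The samples are primary cultures of radial glia, which differentiate into ependymal cells, the layer with motile cilia that faces the ventricles of the brain. By their titles, 4 samples were kept in serum-containing differentiation medium alone (untreated) and 4 received 20 ng/ml epidermal growth factor (EGF) in the same medium from the start of differentiation, with 2 weeks of culture, and each sample was measured on its own array. Their source names disagree with the titles, reading DMSO (a solvent) where the title reads untreated and MLN4924 (a drug that blocks the NEDD8-activating enzyme) where it reads EGF. Groups were taken from the titles, so "with EGF" refers to a title and not to a settled treatment. The sources used here give no strain, animal age or number of animals, and do not say whether the 4 replicates of a group are separate cultures. A p-value therefore reflects the scatter among these arrays, part or all of which may be technical.

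Signals are the deposited log2 values, and the 8 array medians lay between 4.56 and 4.82. Levels of different genes come from different probes and are not compared. In the untreated group all 13 measured markers of motile ciliated ependymal cells lay above the array medians, and all 13 were lower with EGF, among them Rsph4a, Ak7, Rsph1 and Ccdc39, which build or regulate the ciliary axoneme. Markers of other cells were also present: of 16 genes of microglia and macrophages, the phagocytes of the brain, 15 lay above the medians in the untreated group. With EGF, 15 of these 16 fell and 1 did not pass, and the log2 of their summed signal was 16.7 to 17.5 untreated and 11.3 to 12.2 with EGF. These 16 genes are called microglial below for short, but microglia and macrophages were not told apart. Of 12 measured markers of fibroblasts and mural cells 10 fell, 1 rose and 1 did not pass, with summed levels of 17.3 to 17.7 and 15.6 to 15.9, of which Acta2 alone makes up 86.3% or more on every array. Of the remaining lists, neuroblast and neuron markers fell in 7 of 8, choroid plexus markers in 3 of 7 and oligodendrocyte markers in 3 of 8 (2 rose); astrocyte markers rose in 9 of 11 and fell in 2, and endothelial markers rose in 4 of 10 and fell in 3 with the deposited values, and rose in 2 and fell in 4 under each of 3 other scalings. Some of the other counts also moved with scaling. After centring arrays on their medians and after cyclic loess, all 16 microglial genes fell and 8 astrocyte markers rose. There, 4 choroid plexus markers fell and none of the fibroblast and mural cell markers rose. Oligodendrocyte markers rose in 1 under each of the 3 scalings and fell in 2 or 3. The part of these other cells in the results below was not tested.

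Metalloproteinases are zinc-dependent proteases made as inactive proenzymes, which are activated when their propeptide is removed. Some are secreted and others are held at the cell surface, and TIMPs inhibit them by occupying the active site. In the brain they remodel the basement membrane and the matrix between cells, release growth factors and receptors from cell surfaces, and are known from migrating and reactive glia and from phagocytes.

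The family did not move as a block. Among the proteases Mmp14, Mmp17 and Mmp2 were higher with EGF and Mmp3, Mmp16 and Mmp9 were lower; among the inhibitors Timp2 and Timp3 were lower and Timp4 was higher. All 9 measured genes passed (4 rose, 5 fell; limma, Benjamini-Hochberg adjusted p under 0.05 over all genes), where 60.3% of all genes tested passed, 39.7% upward and 20.7% downward. Of the 9 genes, 8 lay above every array median in both group means. In a fit of the 19095 genes brighter than the median signal, 73.1% passed, 40.7% upward and 32.3% downward. Passing was thus common in this comparison. Changes of at least 2-fold were seen in 6 of 9 genes, against 13.7% of all genes: 3 upward (Mmp14, Mmp17 and Timp4), against 6.25%, and 3 downward (Mmp3, Timp2 and Timp3), against 7.42%. The 9 genes were chosen with earlier results of these data known, so these shares do not describe the family as a whole. Of the 16 other matrix metalloproteinase genes, 3 fell and 0 rose at least 2-fold. The groups did not overlap in 8 of 9, against 54.0% of all genes. The median log2 fold change was -0.79 over these 9 genes and 0.17 over all genes. The deposited arrays were not on equal medians, so the counts for the 9 genes were repeated under 3 other scalings of the arrays. All 9 genes kept their direction there, and the groups again overlapped for Mmp2 alone. The 8 of 9 without overlap stood against 46.9% of all genes (quantile), 44.7% (centring) and 46.9% (cyclic loess). The 2-fold counts moved: upward, Mmp14 dropped out in each of the 3 and Mmp17 also after centring, which left 2 (quantile, against 5.56% of all genes), 1 (centring, 4.38%) and 2 (cyclic loess, 4.95%). Downward there were 3 (7.86% of all genes), 4 with Mmp16 after centring (9.11%) and 3 (8.58%). Of all genes, 48.5% passed after quantile normalization (23.7% upward, 24.8% downward), 46.5% once arrays were centred on their medians (18.7% and 27.8%) and 47.9% after cyclic loess (20.6% and 27.3%).

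**Figure D1:**
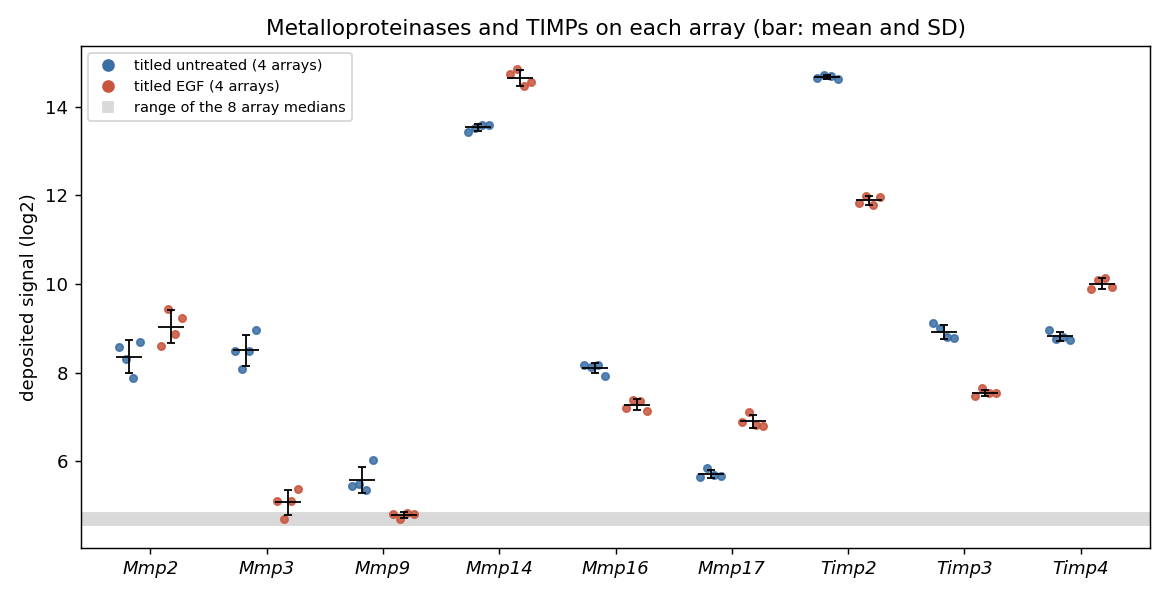
Deposited log2 signal (y axis) of the 9 measured genes (x axis) on each of the 8 arrays, blue for arrays titled untreated and red for those titled EGF, with the mean and SD of 4 arrays in black and the range of the 8 array medians, 4.56 to 4.82, as a grey band. The groups are apart for every gene but Mmp2, and Mmp9 and Mmp3 come close to the grey band with EGF.

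Promoter sequences are shown for the pair of measured genes with the largest falls and the pair with the largest rises among those for which RefSeq gave a sequence (build GRCm38.p6, from 250 bases before to 50 after the start of the gene). Such sequences were at hand for 6 of the 10 genes. Capitals mark matches to TGANTCA (N is any base), a looser pattern that includes the AP-1 site TGA(C/G)TCA, and to AGGAAG, a core bound by ETS factors such as PEA3. Each was searched on both strands, and no match overlapped another. AP-1 and ETS factors are known targets of ERK signalling. Each sequence reads 5′ to 3′ on the strand of its gene.
Mmp3, chr9:7445572-7445871, plus strand: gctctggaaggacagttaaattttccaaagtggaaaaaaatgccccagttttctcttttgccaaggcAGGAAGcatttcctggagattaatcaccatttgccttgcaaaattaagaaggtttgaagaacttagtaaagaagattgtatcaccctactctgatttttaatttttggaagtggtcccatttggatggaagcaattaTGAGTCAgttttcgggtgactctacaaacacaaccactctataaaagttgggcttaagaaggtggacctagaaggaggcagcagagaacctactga
Timp2, chr11:118355362-118355661, minus strand: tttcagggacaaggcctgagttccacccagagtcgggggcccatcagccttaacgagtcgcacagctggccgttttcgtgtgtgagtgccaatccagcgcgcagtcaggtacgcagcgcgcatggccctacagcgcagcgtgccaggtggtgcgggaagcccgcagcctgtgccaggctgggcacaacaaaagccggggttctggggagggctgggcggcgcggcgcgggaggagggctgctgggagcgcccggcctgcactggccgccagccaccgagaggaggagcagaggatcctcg
Timp4, chr6:115252156-115252455, minus strand: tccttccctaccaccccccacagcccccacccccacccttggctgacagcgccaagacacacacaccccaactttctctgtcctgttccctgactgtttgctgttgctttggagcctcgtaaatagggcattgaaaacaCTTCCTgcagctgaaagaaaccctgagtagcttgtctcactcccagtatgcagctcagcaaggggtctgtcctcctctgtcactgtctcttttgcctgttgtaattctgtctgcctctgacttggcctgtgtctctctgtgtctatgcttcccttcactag
Mmp14, chr14:54431348-54431647, plus strand: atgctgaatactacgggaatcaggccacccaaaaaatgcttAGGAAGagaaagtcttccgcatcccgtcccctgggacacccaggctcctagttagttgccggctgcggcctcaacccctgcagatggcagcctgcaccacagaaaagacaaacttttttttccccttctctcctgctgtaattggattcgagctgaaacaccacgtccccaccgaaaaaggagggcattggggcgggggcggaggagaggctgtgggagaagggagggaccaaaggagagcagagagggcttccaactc

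The Mmp3 window held TGAGTCA with its first base at position -46 from the start of the gene, and it was the only one of the 6 windows with a TGANTCA match, which 7.81% of 32851 promoter windows of the same length hold. AGGAAG or its reverse complement stood in 4 of the 6 windows (Mmp3, Mmp14, Timp3 and Timp4), against 35.4% of all windows. Windows of genes that fell and of genes that rose were among these 4. The Timp2 window had neither motif and a GC content of 68.7%, against 40.0% for Mmp3. A match describes letters in the window and is neither a shown binding site nor a cause of a change.

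Mmp3, which encodes stromelysin-1, a secreted protease of broad range that also activates other proenzymes, showed the largest change of the 9 genes. Its signal on the untreated arrays, in the order of replicates 1 to 4, was 8.48, 8.07, 8.49 and 8.95, and on the EGF arrays, in the same order as for all genes below, 5.10, 4.70, 5.10 and 5.36. Every EGF array lay at least 2 log2 units below every untreated array, and the EGF signals came near the array medians, where a fold change can be understated. The mean fell from 8.50 ± 0.36 to 5.07 ± 0.27 (SD, n = 4), a log2 fold change of -3.43 ± 0.18 (SE; limma adjusted p = 1.23e-07). Only 1.25% of all genes had a larger absolute change.

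The microglial markers moved the same way: Lyz2 fell by 5.88 ± 0.25 (log2, SE), Fcer1g by 4.52 ± 0.29, C1qb by 4.42 ± 0.29 and Itgam by 4.31 ± 0.28. Within the untreated group, replicate 4 had both the highest Mmp3 signal (8.95) and the highest summed microglial level (17.5, against 16.7 to 16.9 in the others). Lyz2 alone makes up 87.7% to 92.8% of that untreated sum, so the single markers were also counted: 13 of 16 were highest in replicate 4 and 12 of 16 were lowest in replicate 1, while Mmp3 was lowest in replicate 2. This was picked out after the values were seen, and the part of these cells in the fall of Mmp3 was not tested. The fibroblast markers Postn (-3.77 ± 0.14), Col1a1 (-2.87 ± 0.29), Pdgfrb (-2.33 ± 0.17) and Dcn (-2.19 ± 0.47) were lower as well. In such mixed cultures, fewer cells of a type and less RNA per cell cannot be told apart.

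Mmp9 and Mmp2 encode the gelatinases, secreted enzymes that cut denatured collagen and basement membrane collagen, and they went in opposite directions. Mmp9 read 5.44, 5.49, 5.35 and 6.02 in the untreated arrays and 4.8, 4.69, 4.83 and 4.81 in the EGF arrays. The groups did not overlap, untreated replicate 4 stood highest, and the EGF signals lay at the level of the array medians. The fall was 0.79 ± 0.13 on the log2 scale (SE; limma adjusted p = 5.03e-04).

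Mmp2 read 8.58, 8.30, 7.87 and 8.69 untreated and 8.61, 9.44, 8.86 and 9.24 with EGF. EGF replicate 1 lay within the untreated range, so this was the 1 gene of the 9 whose groups overlapped. The mean went from 8.36 ± 0.37 to 9.04 ± 0.37 (SD, n = 4), a log2 fold change of 0.68 ± 0.21 (SE; limma adjusted p = 0.0192). The call ended after centring each array on its median (0.49, limma adjusted p = 0.0827), after cyclic loess (0.57, adjusted p = 0.0530), when EGF replicate 2 was left out (0.54, limma adjusted p = 0.0512) and when EGF replicate 4 was left out (0.61, limma adjusted p = 0.05003). With a threshold of 0.01 in place of 0.05, Mmp2 was the 1 gene of the 9 that did not pass, and 43.9% of all genes passed. Within the untreated group Mmp2 was lowest in replicate 3, where 9 of 12 fibroblast and mural cell markers were also lowest. It was highest in replicate 4, where 5 of the 12 were highest, as in replicate 1. With EGF 10 of these 12 markers fell, while Mmp2 rose. This was picked out after the values were seen and was not tested.

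The membrane-anchored proteases differed among themselves. Mmp14 encodes MT1-MMP, a transmembrane protease that cuts fibrillar collagen and activates the Mmp2 proenzyme. It read 13.44, 13.52, 13.59 and 13.59 untreated and 14.75, 14.86, 14.46 and 14.55 with EGF. All EGF arrays were higher, by 1.12 ± 0.09 in the log2 mean (SE; limma adjusted p = 2.94e-06), or 0.91 to 1.00 under 3 other scalings.

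Mmp17 encodes MT4-MMP, which is held at the surface by a lipid anchor in place of a transmembrane segment. Its signal was 5.65, 5.84, 5.69 and 5.67 untreated and 6.88, 7.10, 6.81 and 6.80 with EGF. The groups lay well apart, at low to moderate signal. The rise was 1.19 ± 0.08 (log2, SE; limma adjusted p = 8.12e-07).

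Mmp16, which encodes the transmembrane protease MT3-MMP, went the other way. It read 8.16, 8.13, 8.18 and 7.93 untreated and 7.21, 7.39, 7.36 and 7.13 with EGF. All EGF arrays were lower than all untreated arrays, and the fall was 0.83 ± 0.08 (log2, SE; limma adjusted p = 1.36e-05). The 3 measured genes of this class therefore split, with Mmp14 and Mmp17 higher and Mmp16 lower, in each of the 4 scalings.

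Timp2 had the largest fall among the inhibitors. TIMP-2 is a secreted inhibitor of broad range with a second role: bound to MT1-MMP at the cell surface, it is the docking site for the Mmp2 proenzyme, so that at low amounts it serves activation and at high amounts it blocks it. Timp2 read 14.66, 14.71, 14.70 and 14.63 untreated and 11.82, 11.98, 11.78 and 11.97 with EGF. The arrays of each group lay within a narrow band and the bands were far apart, and both lay far above the array medians. The mean fell from 14.68 ± 0.04 to 11.89 ± 0.10 (SD, n = 4), a log2 fold change of -2.79 ± 0.07 (SE; limma adjusted p = 5.39e-10), 6.90-fold. Only 1.97% of all genes had a larger absolute change.

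Timp3 encodes the inhibitor that stays bound to the matrix and that also blocks ADAM and ADAMTS proteases. It read 9.11, 9.0, 8.80 and 8.78 untreated and 7.46, 7.64, 7.53 and 7.53 with EGF. Every EGF array was lower than every untreated array. The fall was 1.38 ± 0.09 (log2, SE; limma adjusted p = 3.66e-07).

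Timp4, a secreted inhibitor known from brain and heart, was the inhibitor of the named set that rose. It read 8.97, 8.76, 8.80 and 8.73 untreated and 9.89, 10.10, 10.13 and 9.92 with EGF. The groups did not overlap, and the rise was 1.20 ± 0.08 (log2, SE; limma adjusted p = 7.35e-07). The rises of Timp4, Mmp17 and Mmp14 differed by less than 1 SE, and without EGF replicate 3 the order turned (1.16 for Timp4, 1.21 for Mmp17 and 1.19 for Mmp14).

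**Figure D2:**
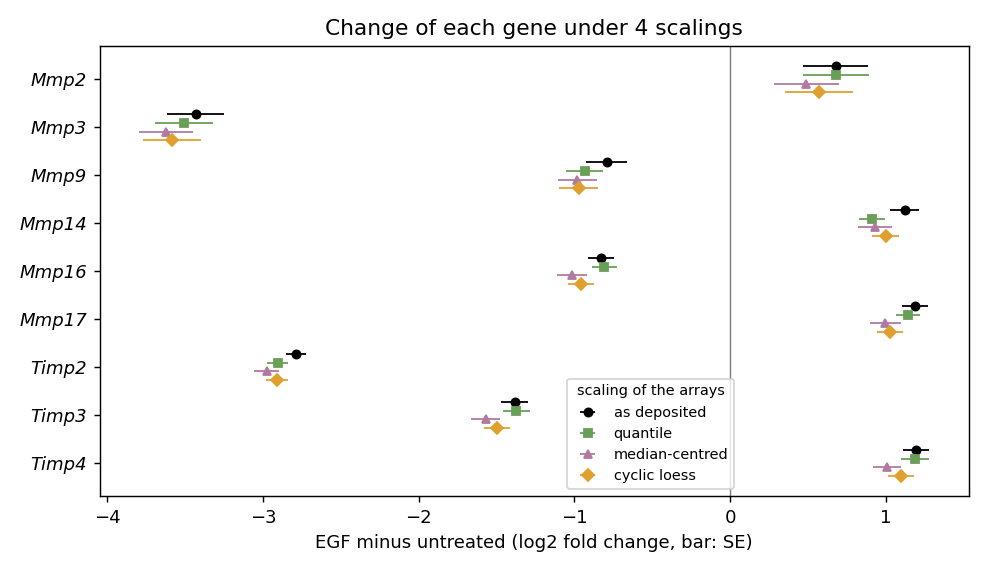
Log2 fold change, EGF minus untreated (x axis), of each measured gene (y axis), with bars for the SE over 4 arrays a group and 1 marker for each of 4 scalings of the arrays: as deposited, quantile, median-centred and cyclic loess. The sign of every gene is the same in all 4 scalings, and the Mmp2 estimates (0.49 to 0.68) have the widest bars.

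The proteins of Mmp2, Mmp14 and Timp2 meet in 1 complex at the cell surface, so the genes were also set against each other within each array, which removes any difference in scaling between arrays that is common to all genes. Only the shift of such a difference has meaning, since the probes differ. Mmp14 minus Timp2 was -1.22, -1.19, -1.11 and -1.04 on the untreated arrays and 2.93, 2.88, 2.68 and 2.58 on the EGF arrays. The groups were far apart relative to their spread (SD 0.08 and 0.17, n = 4), with a shift of 3.91.

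Mmp2 minus Timp2 shifted by 3.47, from -6.32 ± 0.40 to -2.85 ± 0.29 (SD, n = 4), and Mmp14 minus Timp3 by 2.50, from 4.61 ± 0.23 to 7.12 ± 0.17. The two-sided exact permutation p was 0.0286 for each, the smallest that 4 against 4 arrays allow, and 0.0286 after adjustment over the 3. Each pair sets a gene that rose against one that fell, so the separation follows from the changes given above and adds no support to them; Mmp14 and Timp4, which both rose, were not paired. Transcript of both proteases thus changed unequally with that of the inhibitors they were set against; protein amounts and enzyme activity were not measured.

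**Figure D3:**
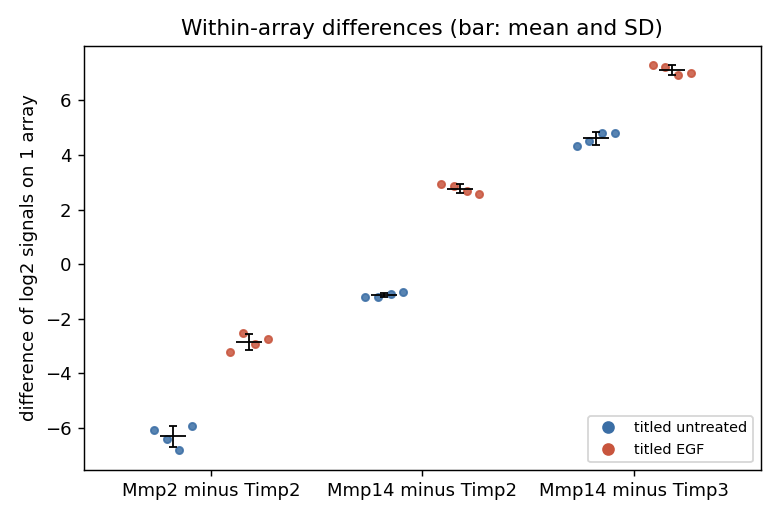
Difference of log2 signals between 2 genes on the same array (y axis) for 3 pairs (x axis), blue for untreated and red for EGF arrays, with the mean and SD of 4 arrays in black. The shifts are 3.47, 3.91 and 2.50, and no EGF array overlaps an untreated array.

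The other 16 matrix metalloproteinase genes were all measured, and 10 of them lay below the highest array median in both groups. With the deposited values 6 of the 16 fell, 5 rose and the remaining 5 missed the threshold (median 0.02), and 1 rose and 8 fell under each of 3 other scalings (medians of -0.16, -0.16 and -0.17). The rises of Mmp1b, Mmp7, Mmp20 and Mmp27, named because they are what the scaling removes, were 0.21 to 0.25 at signals of 4.16 or less, close to the shift of 0.17 in the median of all genes. Their sign held in all 4 scalings, but none of them passed under the other 3. Mmp28 (epilysin) rose by 0.46 ± 0.06 (log2, SE; limma adjusted p = 1.36e-04), and it was the rise left under the other scalings.

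Mmp13, a collagenase, read 8.44, 7.26, 7.16 and 7.57 untreated and 4.63, 4.54, 4.57 and 4.71 with EGF. The EGF arrays lay at the array medians, so its fall of 3.00 ± 0.24 (log2, SE; limma adjusted p = 1.98e-06) can be understated. Mmp12, an elastase named for macrophages, read 7.91, 7.74, 8.33 and 8.44 untreated and 5.43, 5.0, 4.97 and 5.23 with EGF. It fell by 2.95 ± 0.16 (log2, SE; limma adjusted p = 1.59e-07), beside the falls of the microglial markers given above. Mmp11, which encodes stromelysin-3, fell by 1.14 ± 0.12 from 7.55 ± 0.15 to 6.42 ± 0.24 (SD, n = 4).

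Mmp3, Mmp12 and Mmp13 are neighbours. The RefSeq annotation of GRCm38.p6 places 10 Mmp genes in a run on chromosome 9 with no other protein-coding gene between them, in the order Mmp13, Mmp12, Mmp1b, Mmp3, Mmp1a, Mmp10, Mmp8, Mmp27, Mmp20 and Mmp7. In the untreated group Mmp13, Mmp12 and Mmp3 had means of 7.61, 8.11 and 8.50, and the other 7 had means of 3.51 to 4.64. The genes with signal above the array medians and a large fall thus stood among genes with signals at or below the array medians, and Mmp1b, between Mmp12 and Mmp3, was dim in both groups (3.51 and 3.75). Mmp10, the closest relative of Mmp3, fell by 0.33 at a signal of 4.64 untreated, below the array medians with EGF. Members of this run resemble each other in sequence, and whether probes of 1 gene also read another was not tested.

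**Figure D4:**
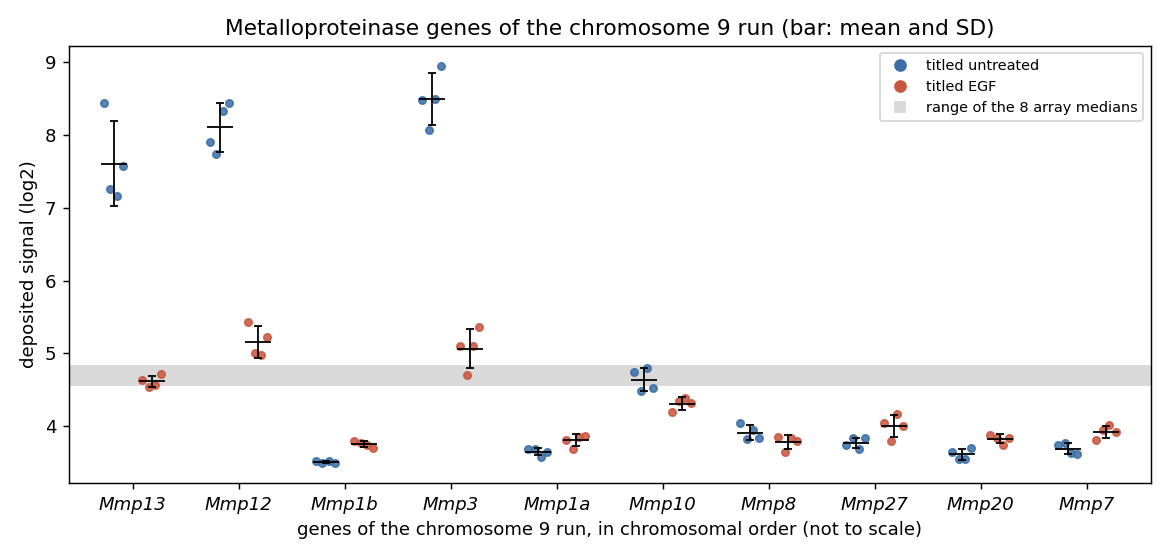
Deposited log2 signal (y axis) of the 10 Mmp genes of the chromosome 9 run in chromosomal order (x axis, not to scale) on each array, blue for untreated and red for EGF, with mean and SD of 4 arrays in black and the range of array medians in grey. Mmp13, Mmp12 and Mmp3 stand above the grey band in the untreated arrays and fall to or near it with EGF, and the other 7 lie at or below the band.

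Of 9 other genes listed with the protease inhibitors, not all of them inhibitors of metalloproteinases, 4 rose, 2 fell and 3 did not pass. The median of 0.10 turned to -0.10, -0.09 and -0.09 under the 3 other scalings (3 rose and 3 fell in each), so the list has no settled direction. Timp1, the secreted inhibitor that is often induced in reactive glia, read 9.55, 9.77, 9.74 and 10.05 untreated and 10.64, 10.57, 10.16 and 10.44 with EGF. The groups were close but did not overlap, and Timp1 rose by 0.68 ± 0.13 (log2, SE; limma adjusted p = 0.00117). Reck, a membrane-anchored inhibitor, fell by 0.38 ± 0.08 (adjusted p = 0.00317 in limma). Spock2, a testican proteoglycan gene listed by its family, rose by 2.11 ± 0.10, and whether its rise adds inhibition was not tested. A2m, the broad protease inhibitor alpha-2-macroglobulin, rose by 0.85 ± 0.07. Cst3, an inhibitor of cysteine proteases that is counted in the list, fell by 0.29 ± 0.07.

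Activators and the plasminogen system, which turns on several proenzymes, were split as well: 6 of 11 measured genes fell, 4 rose and the other missed the threshold (median -0.26). Under the 3 other scalings 6 fell and 3 rose in each, with medians of -0.39, -0.45 and -0.44. The list also counts genes of inhibitors, Serpini1 and Serpinf2. With the deposited values Serpini1 fell by 0.66 ± 0.08 and Serpinf2 rose by 0.31 ± 0.07 (log2, SE). The counts therefore do not describe activators alone. The plasminogen activators went in opposite directions. Plat, the tissue-type activator, read 13.02 to 13.10 untreated and 15.53 to 15.64 with EGF, a rise of 2.52 ± 0.06 (log2, SE; limma adjusted p = 4.02e-10). Plau, the urokinase-type activator, fell from 6.54 ± 0.29 to 5.09 ± 0.14 (SD, n = 4) and its receptor gene Plaur from 7.77 ± 0.46 to 6.37 ± 0.15. In the authors' deposited table, Plaur goes the other way, from 6.04 to 7.28. Pcsk6, a proprotein convertase, fell by 1.69 ± 0.08.

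The related ADAM and ADAMTS families, some enzymes of which Timp3 also inhibits, held large changes in both directions. The counts below do not separate genes by whether Timp3 inhibits their protein. Among 11 ADAM genes there were 8 rises and 2 falls (median 0.51, and 0.32, 0.32 and 0.38 under 3 other scalings, where 6 rose). Adam11 rose by 2.06 ± 0.14, Adam15 by 1.76 ± 0.09 and Adam19 by 1.07 ± 0.11 (log2, SE), while Adam8, which is known from leukocytes, fell by 3.95 ± 0.22 beside the microglial markers. The sheddases Adam10 and Adam17, which release EGF receptor ligands, differed: Adam10 rose by 0.51 ± 0.07 (limma adjusted p = 1.77e-04), and the value of Adam17 was -0.11 ± 0.07 with overlapping groups (adjusted p = 0.193 in limma; it passed as a fall after centring and after cyclic loess, at -0.30 and -0.23).

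Among 17 ADAMTS genes there were 8 rises and 6 falls, with a median of 0.08 that turned to -0.11 after centring and -0.09 after cyclic loess. Adamts14, which trims procollagen, had signals of 6.41 to 6.62 untreated and 10.65 to 11.07 with EGF. That was a rise of 4.35 ± 0.09 (log2, SE; limma adjusted p = 2.65e-10). The aggrecanase genes parted: Adamts4 rose by 3.51 ± 0.17, and Adamts5 fell by 2.89 ± 0.08, to signals near the array medians. Adamts6 rose by 2.76 ± 0.08.

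Genes of matrix proteins that these enzymes cut fell in 13 of 24 cases, rose in 9 and did not pass in 2 (median -0.33, and -0.34, -0.51 and -0.43 under other scalings). Col1a1 fell by 2.87 ± 0.29 and Col1a2 by 2.14 ± 0.33 (log2, SE), both also counted among the fibroblast markers. Fn1, the fibronectin gene, rose by 2.15 ± 0.15, and Ncan, which encodes the brain proteoglycan neurocan, by 2.05 ± 0.07.

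Genes whose array-to-array pattern lay closest to that of a family member were found by the root mean square difference over the 8 arrays after subtracting each gene's own mean. Around Timp4, nominally the largest rise, these were Rragb (0.042 log2 units), Tmem44 (0.047) and Txndc16 (0.051). Around Mmp3, the largest fall, they were Igf1 (0.140), Clec4d (0.158) and Cd55 (0.212). Igf1 went from 8.74 ± 0.34 to 5.51 ± 0.20 and Clec4d from 9.06 ± 0.39 to 5.47 ± 0.12 (SD, n = 4). The measure is dominated by the difference between the groups, and it is a description of 8 arrays.

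The authors' deposited table of their own comparison, headed ctrl and gf, lists 3 of the 9 genes, and it does not match the arrays for Mmp3. In the authors' deposited table, Mmp3 has group averages of 4.93 for ctrl and 11.97 for gf, a difference of 7.04 upward with a false discovery rate of 0.0247, where the arrays fell from 8.50 to 5.07. For Mmp2 the authors' deposited table gives 10.08 and 11.82 (false discovery rate 0.160), the same direction as the arrays at a higher level. For Mmp16 the authors' deposited table gives 8.69 and 7.50, also in the same direction as the arrays. Among relatives, the authors' deposited table has Timp1 at 6.55 and 11.45, a difference of 4.90 against 0.68 on the arrays, and Mmp10 and Mmp19 upward by 1.61 and 1.37, where the arrays gave -0.33 and -0.46.

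The mismatch is general. Of 4136 clusters in the authors' deposited table, 16.1% of the ctrl averages lie within the range of the 4 untreated arrays (tolerance 0.01) and 17.9% of the gf averages within that of the 4 EGF arrays, although an average of the same values could not leave that range. The direction is the same for 85% of these clusters in the authors' deposited table and on the arrays. Of the other pathway genes described above, 28 are in the authors' deposited table, 20 in the same direction as on the arrays and 8 (Mmp10, Mmp19, Plaur, Col4a1, Col4a2, Lamc1, Hspg2 and Cd44) in the opposite one. The sources used here do not say which samples and which normalization stand behind it. Directions of Mmp3 and of the 8 opposite genes therefore hold for the 8 arrays alone. Mmp9, Mmp14, Mmp17, Timp2, Timp3 and Timp4 are absent from the authors' deposited table, so their directions also rest on the arrays alone. The smallest absolute difference in the authors' deposited table is 1.0. All of these absent genes but Mmp9 changed at least 2-fold on the arrays as deposited.

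**Figure D5:**
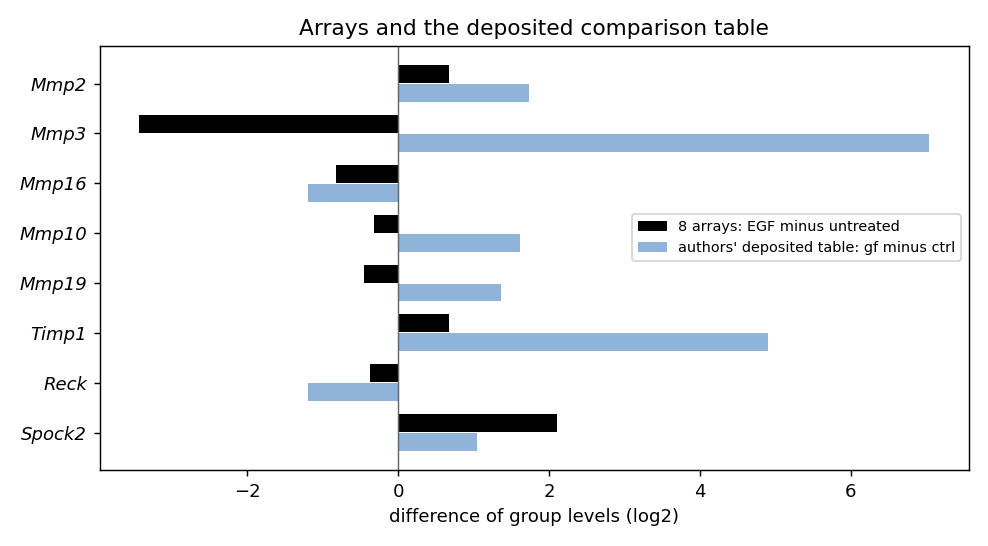
Difference of group levels on the log2 scale (x axis) for the metalloproteinase and inhibitor genes that both sources list (y axis), black for the 8 arrays (EGF minus untreated) and light blue for the authors' deposited table (gf minus ctrl). Mmp3, Mmp10 and Mmp19 point in opposite directions, with -3.43 on the arrays and 7.04 in the authors' deposited table for Mmp3.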

How the data were processed

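The authors deposited log2 signals per transcript cluster of a mouse array for 8 samples, 4 a group by title; the log base was read off their range. The submitters' processing notes list RMA, affy and limma with no version or role. The build and the centring are not given, and column medians were 4.56 to 4.60 (untreated) and 4.71 to 4.82 (EGF). Per the file headers, a second table holds the authors' log2 group averages, p-values and false discovery rates. The p-values in it end at 0.0499, and the absolute differences between its group averages start at 1.0. Of 65956 clusters 30638 had 1 gene symbol and 654 several symbols of 1 gene, updated through RefSeq (GRCm38.p6); the cluster with the highest mean stood for a gene, giving 30738 genes.

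The deposited log2 values were fitted with limma 3.58.1 (lmFit, eBayes, in R 4.3.3). Tests were two-sided, p-values were adjusted by Benjamini-Hochberg across the 30738 genes and 0.05 was the threshold, with no filter on dim clusters. The number of arrays limits the precision. Within-array differences had an exact permutation test (scipy 1.17.1). Members, gene lists and tests were chosen with earlier results of these data known. Genes were named by rule: all members, and in each list up to 4 passing genes that changed most (marker genes of 3 lists alone are named). The rule also took Timp1, Reck, Plau, Plat, Adam10 and Adam17, and 3 genes most like the members with the largest rise and fall. After their values were seen, Mmp1b, Mmp7, Mmp10, Mmp19, Mmp20, Mmp27, Cst3, Acta2, Col4a1, Col4a2, Lamc1, Hspg2, Cd44, Serpini1 and Serpinf2 were added. Foxj1, Pdgfra, Serpine2, Adam12 and Adamts2 lacked a cluster that names them alone and are not analysed here. The fit was tested on simulated arrays. Alternatives were 3 scalings, leaving out dim genes, averaging the clusters of a gene, eBayes with trend and robust, array weights, a replicate block, an adjusted p under 0.01 and leaving out each array. Same-numbered arrays did not deviate together (r of -0.08 to -0.0032), so the numbers were not used as pairs. Other software was Python 3.11.15 with pandas 2.3.3, numpy 2.4.6 and matplotlib 3.10.9.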

Additional observations from a re-analysis of the deposited data

Results flagged for a closer look

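In 2 of 110 sets of 4 arrays 1 array stood apart, with a gap to the next array above Dixon's critical value for a share of the range. The sets were each gene named by rule in each group, and the within-array differences. Chance alone gives about 1 in 20. The ependymal gene Ccdc39 read 6.65 on 1 EGF array against 6.92 on the next (gap of 0.964 of the range), within a range of 0.28. The microglial gene Itgam read 6.20 on 1 EGF array against 5.85 on the next (0.854 of the range), within a range of 0.41. No metalloproteinase or TIMP and none of the within-array differences was among them.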

How the results depend on the processing

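Over 17 alternatives, the 9 metalloproteinase and TIMP genes kept direction and side of the threshold in 148 of 153 results; the exceptions were 5 for Mmp2, those given above and an adjusted p under 0.01, and none reversed. Of 731 results for the other genes named by rule 729 were the same and the other 2 were the falls of Adam17. Genes added after their values were seen are not in this count. Among those, Mmp1b, Mmp7, Mmp20 and Mmp27 lost their calls under each of the 3 other scalings. The count of higher genes was 3 or 4 and of lower genes 5 in every alternative tried; leaving out 1 array gave 3 to 4 and 5, and 16426 to 18751 genes called overall. The share of calls that were rises moved with scaling: 65.8% as deposited, 48.8% after quantile normalization, 40.2% after centring and 43.0% after cyclic loess, with a median log2 fold change of all genes of 0.17, 0.0083, -0.020 and -0.011. With the replicate block the member counts were 4 and 5 and 17437 genes (56.7%) passed; the within-array differences kept their values of 3.47 (Mmp2 minus Timp2), 3.91 (Mmp14 minus Timp2) and 2.50 (Mmp14 minus Timp3), but paired sign flips allow no two-sided exact p under 0.125. Without 1 array they ranged from 3.29 to 3.59, 3.85 to 3.97 and 2.41 to 2.57, where no permutation p can go below 0.0571. No same-numbered pair correlated best with its own number. Detection calls were not used here, so genes near the array medians (Mmp9 and Mmp3 with EGF) have folds that may be understated.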
